A study of Mus musculus with 6 samples.

Results

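The genes described here code for the enzymes that break down tryptophan through kynurenine, in the liver of mice without the microRNA miR-137. They were chosen by gene symbol from a list of 9 genes, Tdo2, Ido2, Afmid, Kmo, Kynu, Haao, Acmsd, Qprt and Aadat, which was drawn up with the liver differences of these same arrays already known. The differences below are therefore a description of the chosen genes, and no independent evidence of a change in the pathway. Of the 9 genes, 8 had a probe set that the array annotation gives to that symbol alone, with 15 probe sets among 45037 in all and 8 genes among 18193. Acmsd, whose enzyme takes an intermediate away from NAD synthesis, was not analysed here.

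Whole liver was taken at postnatal day 14 from 3 Mir137-/- and 3 Mir137+/+ mice under standard housing and with no treatment, and each liver was measured on 1 whole-genome Affymetrix mouse array. The knockout removes the exons that hold miR-137 in the whole body from conception on, so the arrays do not tell in which organ its absence acts. According to the methods the allele was made in E14 embryonic stem cells, of a strain other than C57BL/6. The founders were crossed to C57BL/6, and most experiments used mice from the intercross of heterozygous littermates. All values are log2 probe set levels as deposited, and every difference is Mir137-/- minus Mir137+/+ on that scale. A probe set or gene was called when the Benjamini-Hochberg adjusted p of limma's moderated fit over the whole table was below 0.05 and the difference exceeded 1.5-fold, which is 0.58 on the log2 scale.

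In liver, most dietary tryptophan that is not used for protein is opened by tryptophan 2,3-dioxygenase to N-formylkynurenine, which a formamidase turns into kynurenine. Kynurenine is then hydroxylated, cleaved and oxidised toward quinolinic acid, from which NAD can be made, or it is transaminated to kynurenic acid. The liver enzyme of the first step is known for its induction by glucocorticoids and by tryptophan itself, and several metabolites of the route are ligands of the aryl hydrocarbon receptor.

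The mature strands that the knockout lacks are shown because they define the genotype. They were read from the RefSeq table for GRCm38.p6, lie on the plus strand at chr3:118433901-118433923 and chr3:118433865-118433887, and have the seed (bases 2 to 8) in capitals:
mmu-miR-137-3p: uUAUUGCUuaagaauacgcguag
mmu-miR-137-5p: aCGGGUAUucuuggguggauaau
No probe set carried the name Mir137, so the loss of the microRNA itself was not read from these arrays. Tdo2 lies on the same chromosome, at chr3:81958412-81975728, which is 36.5 Mb from the Mir137 hairpin. Whether Tdo2 carried the allele of the stem cell strain in these mice was not tested.

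The arrays were alike in scale, with medians of 4.88 to 4.91 and Pearson correlations (taken across all probe sets as a description) of 0.990 to 0.991 within Mir137-/-, 0.993 to 0.994 within Mir137+/+ and 0.982 to 0.988 between genotypes. Alb, the albumin gene that marks hepatocytes, was at 13.71 to 13.79 on all 6 arrays, whose highest value was 13.79. The samples nevertheless differed in more than genotype. Xist, which is expressed from the inactive X chromosome of females, read 10.91 in replicate 2 and 10.81 in replicate 3 of Mir137+/+, against 3.66 to 4.24 on each remaining array, although the methods describe male mice. Acta1, skeletal muscle actin, was at 11.38 in Mir137-/- replicate 1 and at 4.68 to 5.84 elsewhere, and Prss2, a trypsinogen of the exocrine pancreas, was at 8.56 in Mir137-/- replicate 2 and 6.88 in Mir137+/+ replicate 2 and at 5.06 to 5.53 elsewhere. Counts of called genes are given below with and without these arrays.

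With 1 probe set per gene, the brightest, Ido2, Afmid and Kmo were called lower in Mir137-/- liver, with differences of -1.59, -0.68 and -0.96. Tdo2, Kynu, Haao and Aadat had smaller negative differences that were not called, and Qprt, the step into NAD synthesis, had a positive one that was not called. Thus 3 of 8 genes were called lower and 0 higher by limma, where 3.34% of all genes tested were called lower and 2.34% higher, and at an unadjusted p under 0.05 limma and the methods' t-test each gave 6 members lower and 1, Qprt, higher. Of the 15 probe sets, 6 were called lower and 0 higher, where 2.58% of all probe sets were called lower and 1.94% higher. In 11 probe sets every Mir137-/- array lay below every Mir137+/+ array, in 2 every Mir137-/- array lay above, and in 2 the groups overlapped. Among all probe sets 13.9% separated toward lower and 13.6% toward higher values. The median difference was -0.48 over the 8 genes and 0 over all genes, and 7 of the 8 differences were negative against 49% of all genes. Since the list was proposed from this contrast, nothing is read from how these shares compare. In bulk liver, fewer cells of a type and less RNA per cell cannot be told apart.

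**Figure D1:**
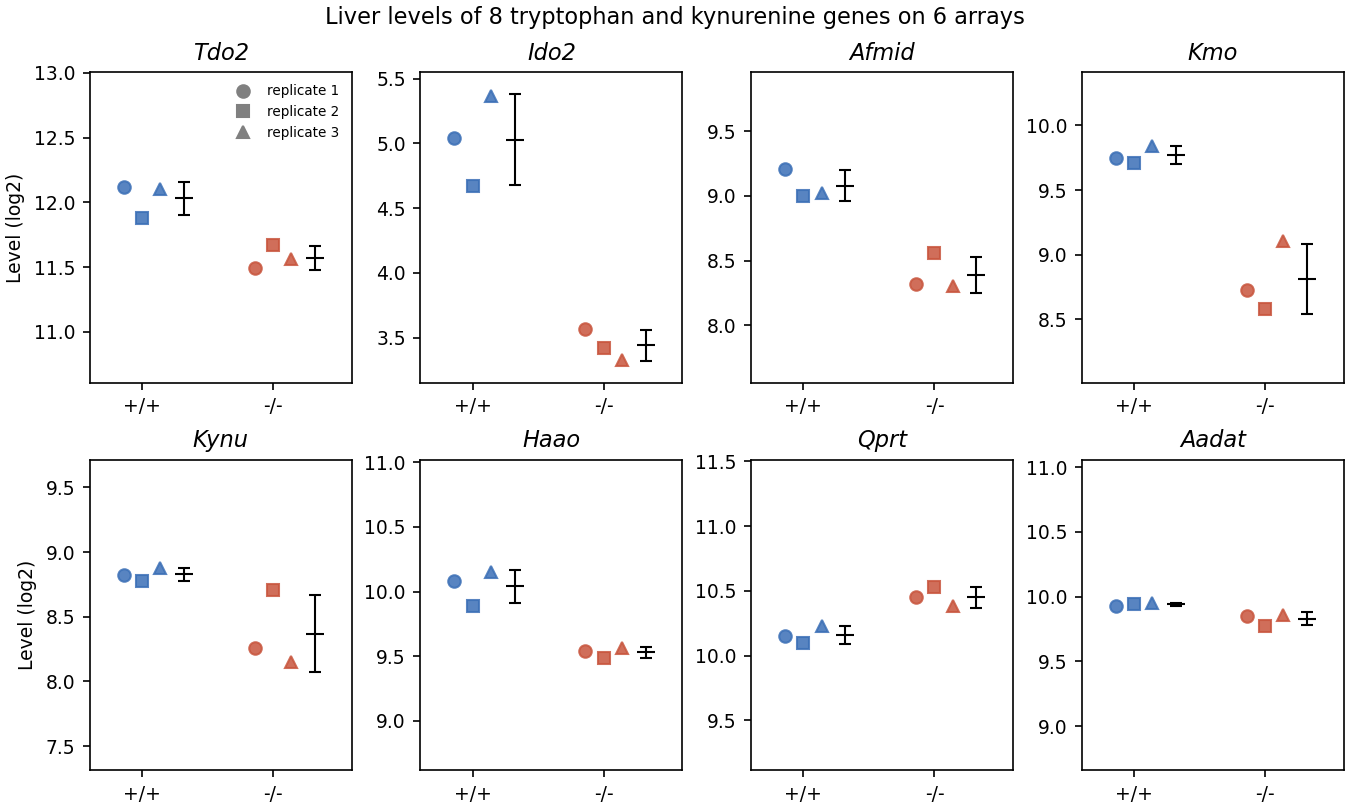
Log2 level of each of the 8 measured genes (brightest probe set) in Mir137+/+ (blue) and Mir137-/- (red) liver, with 1 point per array, its shape giving the replicate, and the mean ± SD (n = 3) in black. Every panel spans the same log2 distance. All Mir137-/- points lie below all Mir137+/+ points except for Qprt, where they lie above.

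Tdo2 codes for tryptophan 2,3-dioxygenase, the hepatocyte enzyme that opens the indole ring and so commits tryptophan to this route. Its brightest probe set, 1419093_at, was at 11.49, 11.67 and 11.56 in Mir137-/- and at 12.12, 11.88 and 12.10 in Mir137+/+ replicates 1 to 3. The groups did not overlap, and the lowest Mir137+/+ array, replicate 2, lay close to the highest Mir137-/- array, also replicate 2. The difference was -0.46 (SE 0.11), which is 1.38-fold and under the fold threshold, so the gene was not called. Another probe set, 1449337_at, differed by -0.54 (SE 0.10) and was not called for the same reason. The remaining 1, 1455770_at, was at 9.07, 9.12 and 9.13 in Mir137-/- and at 9.87, 9.67 and 10.05 in Mir137+/+. It differed by -0.76 (SE 0.11), or 1.69-fold, and was called lower. The 3 probe sets of Tdo2 thus shared a direction and separated the genotypes, with adjusted p of 0.036, 0.0169 and 0.00635 (limma). Only the fold threshold divided them, so whether the gene is called depends on which of them is read.

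The 250 bases upstream of the RefSeq start of Tdo2 (GRCm38.p6, chr3:81975729-81975978, minus strand) are shown because this gene is the liver's entry into the pathway, and they are set beside those of Kmo, a gene called lower (chr1:175631943-175632192, plus strand), and Qprt, which was not lower (chr7:127122030-127122279, minus strand). Capitals mark 5 motifs, each searched on both strands. ATAAAA resembles the TATA box, and CCAAT is the box of that name. TGACCT is a half-site of nuclear receptors, TTTGACC shares letters with it and may overlap it, and GTTAAT is a half-site of HNF1. TTTGACC was added to the search after these sequences had been read.
Tdo2: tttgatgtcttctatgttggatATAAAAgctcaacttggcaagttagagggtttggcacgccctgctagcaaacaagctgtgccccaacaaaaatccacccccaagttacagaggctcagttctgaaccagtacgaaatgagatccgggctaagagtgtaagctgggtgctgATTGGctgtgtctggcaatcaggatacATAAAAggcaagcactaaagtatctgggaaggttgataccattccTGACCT
Kmo: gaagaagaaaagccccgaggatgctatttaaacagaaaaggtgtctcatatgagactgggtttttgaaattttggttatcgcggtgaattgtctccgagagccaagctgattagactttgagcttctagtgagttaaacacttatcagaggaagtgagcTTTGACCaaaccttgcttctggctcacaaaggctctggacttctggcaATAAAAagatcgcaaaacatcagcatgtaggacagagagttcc
Qprt: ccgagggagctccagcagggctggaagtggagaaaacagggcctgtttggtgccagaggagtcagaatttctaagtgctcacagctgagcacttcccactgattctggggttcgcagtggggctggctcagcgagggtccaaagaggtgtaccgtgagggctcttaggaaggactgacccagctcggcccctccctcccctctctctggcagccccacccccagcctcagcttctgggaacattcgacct
ATAAAA occurred in the windows of Tdo2 and Kmo and in 17.0% of the 32851 windows of the table. CCAAT occurred in Tdo2, on the minus strand as printed, and in 33.8% of all windows. TGACCT occurred in Tdo2, Haao and Acmsd and in 14.0% of all windows, and TTTGACC in Kmo, Haao and Acmsd and in 2.25%. GTTAAT was present in Haao alone among the 7 members with a window and in 6.43% of all windows. Qprt, Afmid and Aadat held none of these letters in the window, which draws on 1 annotated start per gene, and Ido2 and Kynu were not searched. These matches describe letters and mark no bound site.

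Ido2 codes for indoleamine 2,3-dioxygenase 2, which catalyses the same ring opening with low activity and is expressed in liver. The gene lies at chr8:24531892-24576414. It had the widest separation of the 8 genes. Its only probe set, 1425778_at, was at 3.57, 3.42 and 3.33 in Mir137-/- and at 5.04, 4.67 and 5.37 in Mir137+/+. Every Mir137-/- array was more than 1 log2 unit below every Mir137+/+ array. The difference between the measured values was -1.59 (SE 0.17), and the gene was called lower. The signal was dim: the Mir137-/- values lay close to the lower quartile of all probe sets on those arrays, which was 3.43 to 3.47, and the Mir137+/+ values lay around the array medians. No detection calls were used here, so it is not known whether Ido2 was above background in Mir137-/- liver, and no fold change is given for it. The neighbouring paralog Ido1, inducible by interferon and 7.7 kb away on chromosome 8, was at 3.16 to 3.80 on all 6 arrays with overlapping groups and a difference of -0.13 (SE 0.17), and is named here as the paralog, after its value was seen.

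Afmid codes for arylformamidase, which releases formate from N-formylkynurenine to give kynurenine. The gene lies at chr11:117825503-117839908. Its brightest probe set, 1452944_at, was at 8.32, 8.56 and 8.30 in Mir137-/- and at 9.21, 9.0 and 9.02 in Mir137+/+. The groups were apart, with Mir137-/- replicate 2 the nearest to the Mir137+/+ arrays. The difference was -0.68 (SE 0.11), or 1.61-fold, and was called. Another probe set, 1428885_at, fell by 0.69 (SE 0.13) and lost its call when the array left out was replicate 1 of Mir137-/- (-0.62), or replicate 1 (-0.58) or 3 (-0.69) of Mir137+/+. The probe set 1431722_a_at fell by 1.05 (SE 0.13), from 6.28, 6.12 and 5.96 in Mir137+/+ to 4.86, 5.17 and 5.18 in Mir137-/-. The last, 1447638_at, was at 2.71 to 2.84 on all 6 arrays, below the lower quartile of each, and gave overlapping groups with a difference of -0.03 (SE 0.09). Thus 3 of the 4 Afmid probe sets were called lower and the remaining 1 was among the dim probe sets of every array.

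Kmo codes for kynurenine 3-monooxygenase, a flavoprotein of the outer mitochondrial membrane that sends kynurenine toward quinolinic acid and NAD. The gene lies at chr1:175632193-175660853. Its probe set 1418998_at was at 8.73, 8.58 and 9.11 in Mir137-/- and at 9.75, 9.71 and 9.84 in Mir137+/+. The Mir137+/+ arrays were close together, whereas Mir137-/- replicate 3 stood above the other two Mir137-/- arrays. The difference was -0.96 (SE 0.14), or 1.95-fold, and the gene was called lower. Without the 2 arrays that carried pancreas transcripts the difference was -0.88, and the call was lost.

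Kynu codes for kynureninase, which cleaves kynurenine and 3-hydroxykynurenine and uses pyridoxal phosphate, the active form of vitamin B6. It is located at chr2:43555258-43683048. Its brightest probe set, 1430570_at, was at 8.26, 8.71 and 8.15 in Mir137-/- and at 8.82, 8.78 and 8.88 in Mir137+/+. Mir137-/- replicate 2 lay just under the Mir137+/+ arrays and apart from its own group. The difference was -0.45 (SE 0.15, 95% interval -0.79 to -0.12). It was under the fold threshold, with an adjusted p of 0.106 (limma), and was not called. Without Mir137-/- replicate 2, an array with pancreas transcripts, it was -0.62 and was called. The other probe set, 1451903_at, was dim at 3.37 to 3.74 and overlapped.

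Haao codes for 3-hydroxyanthranilate dioxygenase, whose product closes by itself to quinolinic acid. It is located at chr17:83831348-83848981. Its probe set 1432492_a_at was at 9.54, 9.49 and 9.56 in Mir137-/- and at 10.08, 9.89 and 10.15 in Mir137+/+. The 3 Mir137-/- arrays lay within 0.07 of each other and below all Mir137+/+ arrays. The difference was -0.51 (SE 0.10), or 1.42-fold, which was under the fold threshold. Without Mir137+/+ replicate 2, the lowest of its group, the difference was -0.58 and Haao was called.

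Qprt codes for quinolinate phosphoribosyltransferase, which feeds quinolinic acid into NAD synthesis. It is located at chr7:127107770-127122029. Its brightest probe set, 1418837_at, was at 10.45, 10.53 and 10.38 in Mir137-/- and at 10.15, 10.10 and 10.23 in Mir137+/+. All Mir137-/- arrays lay above all Mir137+/+ arrays, opposite to the other 7 genes. The difference was 0.29 (SE 0.09, 95% interval 0.08 to 0.51). It was under the fold threshold, with an adjusted p of 0.105 (limma), and was not called. The other probe set, 1418836_at, gave 0.22 (SE 0.11) and was not called either.

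Aadat codes for the mitochondrial aminoadipate aminotransferase, also called kynurenine aminotransferase II, which makes kynurenic acid and also acts in lysine breakdown. The gene lies at chr8:60505843-60545677. Its probe set 1418519_at was at 9.85, 9.77 and 9.86 in Mir137-/- and at 9.93, 9.94 and 9.95 in Mir137+/+. The groups were apart by a narrow margin. The difference was -0.11 (SE 0.09, 95% interval -0.31 to 0.09), so the interval left out any reduction past the fold threshold.

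**Figure D2:**
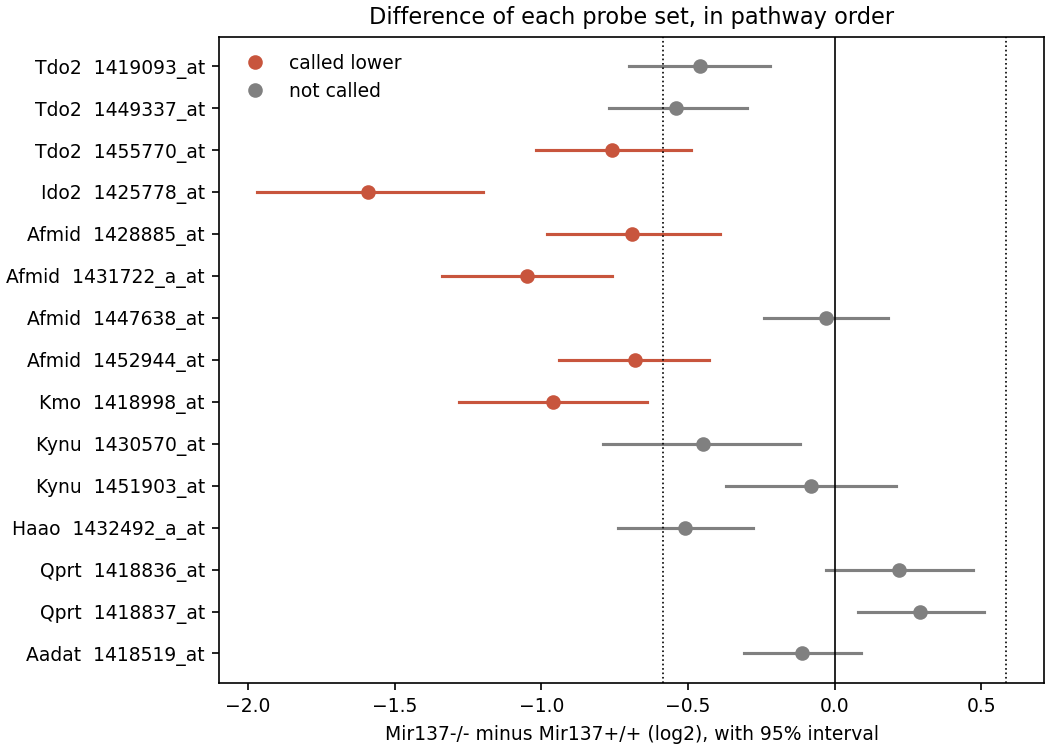
Difference between Mir137-/- and Mir137+/+ (log2, horizontal axis) for each of the 15 probe sets in pathway order, as a point with its 95% interval from the fit over all probe sets. Dotted lines mark a 1.5-fold change, red marks the 6 probe sets called lower and grey those not called. The 2 Qprt probe sets are the only ones right of 0.

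The differences of the members thus ran from -1.59 for Ido2 to 0.29 for Qprt. Within each array, the gap between 2 genes was taken as the difference of their deviations from the Mir137+/+ means, which leaves out any shift that an array gives to both genes. Kmo against Aadat, which compete for kynurenine, stood at -0.95, -1.02 and -0.58 in Mir137-/- and at -0.06 to 0.06 in Mir137+/+. Kmo was lower relative to Aadat in all 3 Mir137-/- livers. Haao against Qprt, the successive steps around quinolinic acid, stood at -0.79, -0.92 and -0.70 in Mir137-/- and at -0.09 to 0.05 in Mir137+/+, again with no overlap. Kmo against Kynu was uneven, at -0.47, -1.07 and 0.02, and its highest Mir137-/- value reached that of Mir137+/+. Kmo against Haao was apart by a narrow margin, at -0.64 to -0.18 in Mir137-/- and -0.06 to 0.09 in Mir137+/+. So was Tdo2 against Aadat, at -0.45 to -0.19 in Mir137-/- and -0.15 to 0.1 in Mir137+/+. Kmo against Qprt stood at -1.56 to -0.88 in Mir137-/- and at -0.01 to 0 in Mir137+/+. All these pairs were picked after the levels were seen and carry no test.

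For each member called at gene level, the genes with the most similar pattern were those with the smallest root mean square distance over the deviations of the 6 arrays, among 9096 genes with a mean above the median. For Ido2 these were Mmd2 at a distance of 0.163, Slc3a1 at 0.164 and Ces2g at 0.197. For Afmid they were H2ac19 at 0.0612, Myo1e at 0.0628 and Msrb1 at 0.0647. For Kmo they were Fbxl20 at 0.0594, Dio1, the liver deiodinase of thyroid hormone, at 0.0600, and Slc22a29 at 0.0624. All 9 were themselves called lower, which follows from the choice by likeness.

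The genes around the route were read from lists of 94 measured genes, of which 5 were called higher and 13 lower, with a median difference of -0.14 and 64.9% negative. Without the 2 Mir137+/+ arrays with Xist, 0 were called higher and 3 lower by limma, namely Prodh, Gpt and Nmrk1. With sex as a term 2 of the 5 (Aox1 and Slc7a5) and 6 of the 13 (Nampt, Nmrk1, Tsc22d3, Fkbp5, Prodh and Gpt) were called, and no other gene. Without the 2 arrays with pancreas transcripts 3 were called higher and 12 lower, of which 2 and 9 were among those called with all arrays. There Kyat3, Nqo1 and Sgk1 were no longer called higher and Kyat1, Slc16a10, Nt5e and Fkbp5 no longer lower, whereas Slc7a8 was newly called higher and Cth, Gpt2 and Nnmt lower, 4 genes named here after their values were seen. Among the 7 other enzymes of tryptophan and kynurenine, 1 was called in each direction. Kyat1, a cytosolic kynurenine aminotransferase, was at 7.01 to 7.31 in Mir137-/- and 7.80 to 8.0 in Mir137+/+ and fell by 0.69 (SE 0.11, adjusted p = 0.00753, limma). Without the arrays with pancreas transcripts it differed by -0.76 and was not called. Kyat3, its mitochondrial relative, was at 11.71 to 11.92 in Mir137-/- and 11.12 to 11.27 in Mir137+/+ and rose by 0.62 (SE 0.09, adjusted p = 0.00588, limma), though without Mir137-/- replicate 1 or Mir137+/+ replicate 3 it was 0.57 and under the fold threshold, and without the arrays with pancreas transcripts it was 0.64 and not called. Got2, a mitochondrial aspartate aminotransferase that can also act on kynurenine, differed by 0.12 (SE 0.08) and was not called, and is named here after its value was seen. In the lower route to glutarate and acetyl-CoA, 0 of 7 genes were called by limma, 1 was higher and 3 were lower at an unadjusted p under 0.05 (2 and 3 by the methods' t-test), and the 2 with the smallest p were Dhtkd1 at -0.41 and Hadha at 0.33. In the serotonin and melatonin branch, also 0 of 7 were called by limma, with 1 higher and 2 lower at an unadjusted p under 0.05 by limma and by the methods' t-test. Here the smallest p belonged to Maob, a monoamine oxidase, at -0.40, and to the serotonin transporter Slc6a4, at -0.26.

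Of 7 carriers that can move tryptophan into cells, 1 was called in each direction. Slc7a5, the light chain of the large neutral amino acid exchanger LAT1, was at 6.42 to 6.57 in Mir137-/- and 5.82 to 5.84 in Mir137+/+ and rose by 0.68 (SE 0.08, adjusted p = 0.00237, limma). Its heavy chain Slc3a2 differed by 0.54 (SE 0.10), under the fold threshold, and is named beside it after its value was seen. Slc16a10, a carrier of aromatic amino acids, was at 6.89, 6.5 and 5.99 in Mir137-/- and 7.34 to 7.46 in Mir137+/+ and fell by 0.95 (SE 0.20, adjusted p = 0.0226, limma). It lost its call under 10 of 22 alternatives, among them leaving out Mir137-/- replicate 2 (-0.97) or Mir137+/+ replicate 1 (-0.94), 2 (-0.99) or 3 (-0.93), and it was at -1.01 and not called without the arrays with pancreas transcripts. It differed by -0.53 as the mean of all its probe sets.

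Of 14 genes of NAD synthesis and nicotinamide handling, 3 were called lower and 1 higher. Nampt, the rate-limiting enzyme that salvages nicotinamide into NAD, was at 7.91 to 8.14 in Mir137-/- and 8.95 to 9.12 in Mir137+/+ and fell by 1.01 (SE 0.10, adjusted p = 0.00107, limma). Nmrk1, a nicotinamide riboside kinase, was at 6.94 to 7.22 against 8.11 to 8.42 and fell by 1.18 (SE 0.12). Nt5e, an ectonucleotidase, fell by 0.75 (SE 0.10), but differed by -0.28 and was not called as the mean of all its probe sets. Aox1, an aldehyde oxidase that can oxidise nicotinamide metabolites, rose by 0.98 (SE 0.10). Without the 2 arrays with pancreas transcripts Nt5e differed by -0.67 and was not called. Among 6 NAD consumers 0 were called by limma, 0 were higher and 1 lower at an unadjusted p under 0.05 (0 and 0 by the methods' t-test), and the 2 with the smallest p were Sirt1 at -0.33 and Bst1 at -0.30. Bst1 differed by -0.19 without Mir137+/+ replicate 2, by -0.13 without the arrays with pancreas transcripts and by -0.01 without those with Xist, where Sirt1 was at -0.21.

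The regulators and sensors of the pathway gave no single direction. Of 9 genes of the aryl hydrocarbon receptor and its targets, Cyp1a2, a cytochrome P450 of liver, was at 9.33, 8.60 and 9.19 in Mir137-/- and 10.19 to 10.25 in Mir137+/+ and fell by 1.17 (SE 0.18, adjusted p = 0.00589, limma), whereas Nqo1, a quinone reductase, rose by 0.70 (SE 0.12) and differed by 0.58, under the fold threshold, without Mir137-/- replicate 1. Nqo1 was at 0.72 and not called without the arrays with pancreas transcripts. Of 10 genes of the glucocorticoid receptor and its induced genes, 2 were called lower and 1 higher, with a median difference of -0.32. At an unadjusted p under 0.05, 5 were lower and 1 higher by limma (4 and 1 by the methods' t-test). Tsc22d3, also known as Gilz, fell by 0.97 (SE 0.10), Fkbp5, a co-chaperone of the receptor, fell by 0.60 (SE 0.11), and the kinase Sgk1 rose by 0.91 (SE 0.17). Fkbp5 lost its call without Mir137-/- replicate 2 (-0.54) or Mir137+/+ replicate 1 (-0.52), and Sgk1 without Mir137+/+ replicate 1 (0.85) or 3 (0.90). Without the arrays with pancreas transcripts Fkbp5 was at -0.56 and Sgk1 at 0.88, and neither was called. Tat, the tyrosine aminotransferase that like Tdo2 is a classical glucocorticoid-induced liver gene, was at 10.55, 11.48 and 10.40 in Mir137-/- and 10.44 to 10.89 in Mir137+/+, with overlapping groups. As the mean of all its probe sets Tsc22d3 differed by -0.55. Tat was outside the naming rule and was picked for its known regulation after its value was seen.

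Of the 2 measured vitamin B6 enzymes, Pdxp, a pyridoxal phosphate phosphatase, fell by 0.66 (SE 0.11) and was under the fold threshold at -0.58 without Mir137-/- replicate 1, and the kinase Pdxk differed by -0.11 (SE 0.10). Of 25 measured enzymes that break down other amino acids, 4 were called lower and 0 higher, with a median difference of -0.30 and 22 negative differences. At an unadjusted p under 0.05, 15 were lower and 0 higher by limma (10 and 0 by the methods' t-test). Prodh, proline dehydrogenase, was at 4.85 to 5.12 in Mir137-/- and 8.53 to 8.83 in Mir137+/+ and fell by 3.68 (SE 0.12). Gpt, alanine aminotransferase, fell by 2.76 (SE 0.18), Aass, of lysine breakdown, by 1.0 (SE 0.14), and Hal, histidine ammonia lyase, by 0.93 (SE 0.19). Gpt differed by -1.08 when probe sets ending in _s_at or _x_at were left out. Hal lost its call without any 1 array other than Mir137-/- replicate 2, with differences of -0.76 to -0.95. No difference between the tryptophan genes and this list was tested.

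**Figure D3:**
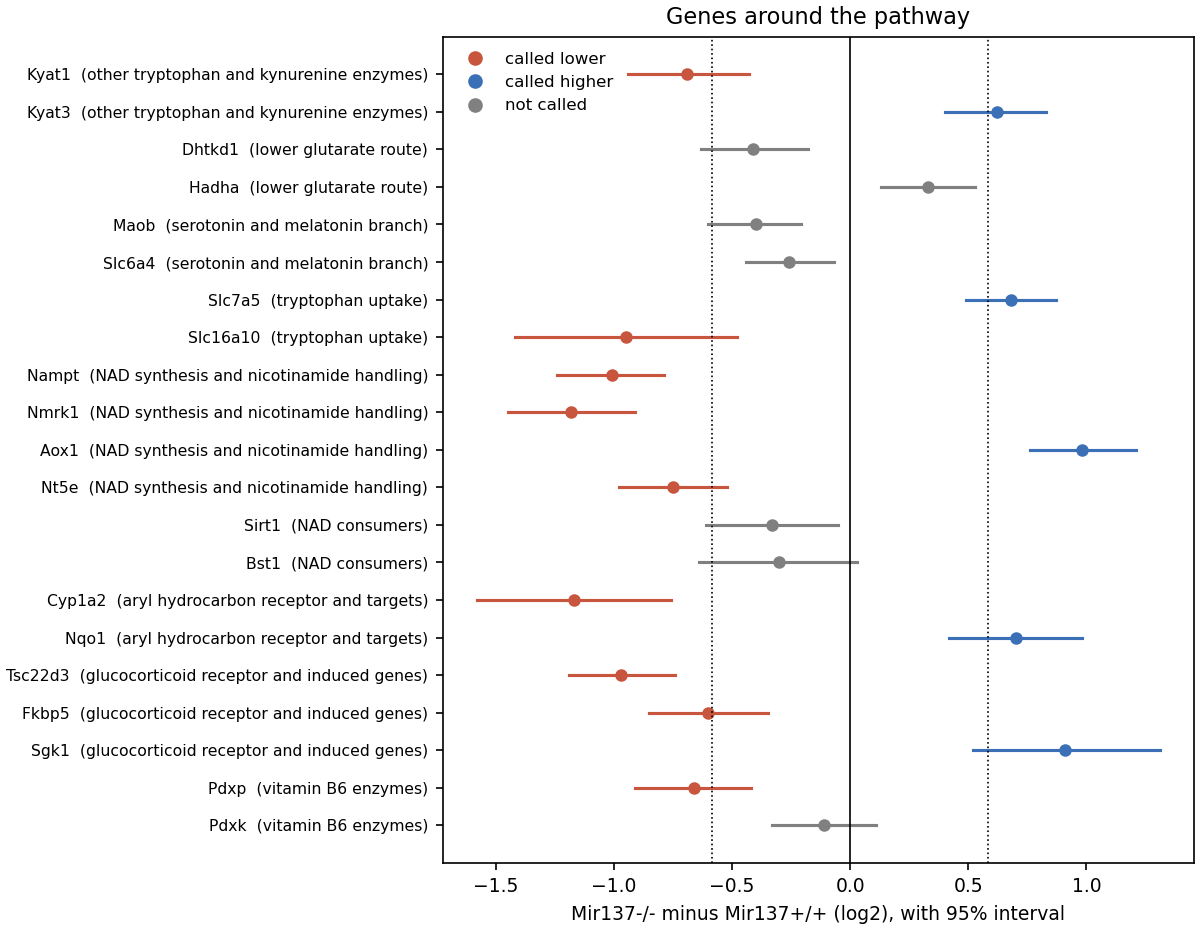
Difference between Mir137-/- and Mir137+/+ (log2, horizontal axis) with its 95% interval for the genes around the pathway named by the rule, each with its list in parentheses. The list of other amino acid breakdown, with Prodh, Gpt, Aass and Hal, is not drawn. Dotted lines mark a 1.5-fold change, red marks genes called lower, blue genes called higher and grey genes not called. Slc7a5, Kyat3, Aox1, Nqo1 and Sgk1 lie to the right of 0 and were called.

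Most markers of B cell precursors and neutrophils were lower in Mir137-/- liver, and few markers of the other cells were called. By limma 0 of 7 dendritic cell, 0 of 5 erythroid, 0 of 7 endothelial and 0 of 5 cholangiocyte markers were called. At an unadjusted p under 0.05 limma gave 3 endothelial markers higher and 1 cholangiocyte marker lower. Of 8 stellate and fibroblast markers 1 was called lower, and of 8 kidney proximal tubule markers 1 was called higher. Of 8 B cell precursor markers 7 were called lower, with a mean level of 4.47 to 4.72 in Mir137-/- and 5.63 to 5.89 in Mir137+/+, and Vpreb1, which codes for a surrogate light chain, was at 2.88 to 3.08 against 4.71 to 5.32. Of 8 neutrophil markers 7 were called lower, with a mean level of 6.10 to 6.62 against 7.48 to 7.93, and Ngp, a granule protein gene, was at 7.19 to 8.10 against 9.41 to 9.83. Clec4f, which marks Kupffer cells, was at 9.78 to 9.82 in Mir137-/- and 9.65 to 9.84 in Mir137+/+. Of 10 markers of Kupffer cells and macrophages 0 were called by limma (3 higher and 0 lower at an unadjusted p under 0.05, 4 and 1 by the methods' t-test), with a mean level of 9.23 to 9.34 in Mir137-/- and 9.10 to 9.17 in Mir137+/+. Of 9 hepatocyte markers 1 was called lower, Apoc3, which codes for an apolipoprotein and is named here after its value was seen, at -1.26 (SE 0.08). The mean level of the list was 12.80 to 12.83 against 13.05 to 13.07, and that of the 8 others was 12.96 to 12.98 against 13.07 to 13.08. The median difference of the list was -0.11. The part of the blood cell markers in the differences of the tryptophan genes was not tested.

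Skeletal muscle markers had a median deviation of 4.89 in Mir137-/- replicate 1 and of at most 0.17 on the other arrays. The median deviation of the 8 tryptophan and kynurenine genes was -0.55, -0.44 and -0.57 in Mir137-/- replicates 1 to 3. The array with muscle transcripts thus lay between the other two Mir137-/- arrays, and without it Ido2, Afmid and Kmo differed by -1.65, -0.65 and -0.92 and were called. Without the 2 arrays that carried pancreas transcripts Ido2 differed by -1.75 and Afmid by -0.80, and both were called. There Kynu, at -0.64, was newly called at gene level, and Kmo, at -0.88, was no longer called.

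The 2 Mir137+/+ arrays with Xist leave replicate 1 as the only Mir137+/+ array without it. Against that array alone, which was assumed to vary like the Mir137-/- arrays, Ido2 differed by -1.60, Kmo by -0.94, Afmid by -0.82, Tdo2 by -0.55, Haao by -0.55, Kynu by -0.45, Aadat by -0.10 and Qprt by 0.30. Each kept its direction and size within 0.14 of the value from all arrays, and the call was kept by Ido2 and lost by Afmid and Kmo. With a sex term taken from Xist, Ido2 and Afmid were called and Kmo was not. Of the 15 probe sets, 1 was called lower without the 2 arrays with Xist and 3 with sex as a term. No Mir137-/- array carried Xist, so beyond this sex and genotype cannot be told apart.

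**Figure D4:**
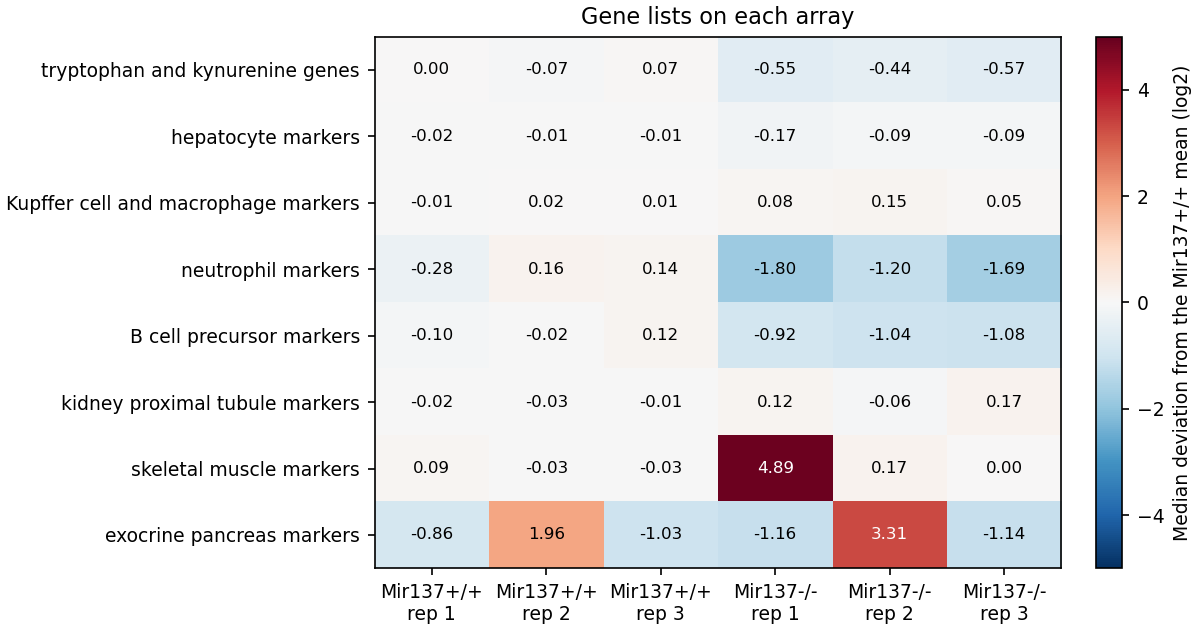
Median deviation from the Mir137+/+ mean (log2, colour and number) of the 8 tryptophan and kynurenine genes and of marker lists of 7 cell types or tissues on each of the 6 arrays (columns). Skeletal muscle markers stand out in Mir137-/- replicate 1 at 4.89 and exocrine pancreas markers in Mir137-/- replicate 2 at 3.31 and Mir137+/+ replicate 2 at 1.96, whereas the tryptophan and kynurenine genes are at -0.44 to -0.57 in all Mir137-/- arrays.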

How the data were processed

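Affymetrix whole-genome mouse arrays were hybridised with liver RNA, 1 mouse per array, from 3 Mir137-/- and 3 Mir137+/+ animals killed on postnatal day 14, and the genotype labels gave the groups. The authors deposited log2 probe set summaries of 45101 probe sets. Their methods name RMA with baseline-to-mean normalization, whereas the submitters' processing notes name GCRMA. The values were used as deposited. After leaving out 64 controls, 45037 probe sets were fitted with limma 3.58.1 in R 4.3.3 (lmFit, eBayes, no covariate), and again with the brightest probe set of each of 18193 genes. Of the probe sets, 34945 had 1 gene symbol, 932 several and 9160 none, and 34741 were matched by Entrez gene to GRCm38.

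The members, the lists and the tests were chosen with earlier results of these data known. All member probe sets, each called gene of the surrounding lists (or the 2 with the smallest p where fewer than 2 were called), the 3 genes nearest to each called member and the first gene of the marker lists whose levels are described are named, and exceptions are marked. With 3 arrays per group the precision is limited by their number, and an exact permutation test cannot go below 0.1. The 2-sided p-values set the difference of the means against the spread between mice of a genotype, each measured on 1 array. In limma that spread was moderated over all features. Within Mir137+/+ it includes any difference between the arrays with and without Xist. The fit was tested on simulated normal values drawn independently for each gene and array. That test cannot show how sex, muscle or pancreas transcripts affect the calls. Array weights used statmod 1.5.0. The alternatives were other tests, thresholds, normalizations, probe set filters, a replicate block, each array left out, a sex term from Xist, and leaving out the arrays with Xist or pancreas transcripts.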

Additional observations from a re-analysis of the deposited data

How the results depend on the processing

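Under 22 alternatives at gene level and 21 at probe set level, no member was called higher, and only the dim Afmid probe set 1447638_at changed sign, from -0.03 to 0.05 with sex as a term and without the 2 Mir137+/+ arrays with Xist. The count of member genes called lower, 3 in all arrays, was 1 by the methods' t-test after Benjamini-Hochberg adjustment, 5 with no fold threshold, 1 by treat, 1 without the arrays with Xist, and 3 to 4 when each array was left out in turn. The count of member probe sets, 6 in all, was 0 by the adjusted t-test, 1 by treat, 3 with sex as a term, 1 without the arrays with Xist, and 5 to 8 with each array left out. Adjusted p over all alternatives ran from 8.9e-05 to 0.0439 for Ido2, from 0.00036 to 1 for Afmid and from 0.000342 to 0.665 for Kmo (limma or the t-test). The upper ends for Afmid and Kmo came from treat, which tests for a change above 1.5-fold. They therefore do not tell whether these genes differed at all. By the adjusted t-test, which tests for any difference, Afmid and Kmo were also above 0.05. At gene level Ido2 was called under each alternative that held it, and the filter on the 40% dimmest probe sets removed it.

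In the surrounding lists the 5 genes called higher became 3 by the adjusted t-test, 8 with no fold threshold, 0 by treat, 2 with sex as a term, 0 without the arrays with Xist, 3 without those with pancreas transcripts, and 3 to 6 with each array left out. The 13 called lower became 6, 21, 2, 6 and 3 under the first 5 of these, and 10 to 13 with each array left out. Over all genes, 425 higher and 607 lower became 54 and 73 without the arrays with Xist, 184 and 259 with sex as a term, 182 and 284 by the adjusted t-test, 49 and 90 by treat, 921 and 1256 with no fold threshold, and 228 and 390 without the arrays with pancreas transcripts. The cause of these shifts was not tested.

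The deviations of arrays with the same replicate number correlated at 0.08, 0.21 and 0.00, and those of arrays with unlike numbers at -0.15 to 0.08. The highest, 0.21, was that of replicate 2, whose arrays both carried pancreas transcripts. The numbers were not taken as pairs in the main fit. With a replicate block 3 member genes and 6 member probe sets were called lower, Kmo at -0.96, and 411 genes higher and 588 lower overall.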
